A study of Mus musculus with 6 samples.

Results

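The leukocyte adhesion molecules of endothelium are the surface proteins with which a vessel wall catches and holds circulating white blood cells. Here they were represented by 9 genes, Icam1, Vcam1, Sele, Selp, Madcam1, Icam2, Alcam, Mcam and Cd99l2, out of 56748 genes in the count table, and each was chosen by its symbol, which occurred in 1 row only. The genes were divided by what is generally known of them into 5 cytokine-induced members (Icam1, Vcam1, Sele, Selp and Madcam1) and 4 constitutive members (Icam2, Alcam, Mcam and Cd99l2). The data were bulk RNA-Seq counts of endothelial cells (ECs) sorted by FACS from the spinal cord of 6 mice at P16, 3 control mice and 3 TDP-43 iΔEC mice, with 1 library per mouse. Both groups carried loxP sites around exon 3 of Tardbp, the gene of the RNA-binding protein TDP-43, and both received tamoxifen (1 mg/mL) once daily from P5 to P7. Only the TDP-43 iΔEC mice also carried the tamoxifen-activated recombinase CreERT2 under the promoter of Cdh5, an EC junction gene, so the deletion was directed to ECs of all vessels of the body and the comparison cannot tell an effect within spinal cord ECs from one that reached them from elsewhere. Control mice lacked the Cre transgene, so an effect of Cre itself in ECs cannot be told apart from that of the deletion.

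Leukocytes leave the blood in steps. The selectins E-selectin (Sele) and P-selectin (Selp) let them roll, and the immunoglobulin-superfamily proteins ICAM-1 (Icam1), VCAM-1 (Vcam1) and MAdCAM-1 (Madcam1) hold them through integrins on their surface. Resting ECs of the central nervous system carry little E-selectin, P-selectin and VCAM-1, and inflammatory cytokines such as TNF and IL-1 raise these and ICAM-1 through the transcription factor NF-kB. ICAM-2 (Icam2), ALCAM (Alcam), MCAM (Mcam, also called CD146) and CD99L2 (Cd99l2) are made without such a stimulus and serve adhesion, junction contacts and the passage through the wall.

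The promoters of 3 cytokine-induced members are shown beside the division into induced and constitutive genes. Each is the 250 bases that precede the start site in RefSeq on GRCm38.p6, written 5′ to 3′ on the strand of the gene, and capitals mark every match on either strand to GGNNNTTCC, a short core of NF-kB sites, and to the TATA sequence TATAAA. A match on the other strand reads as its reverse complement. The windows are chr9:21015690-21015939 (plus strand) for Icam1, chr1:164047984-164048233 (plus strand) for Sele and chr10:79664309-79664558 (plus strand) for Madcam1.
Icam1: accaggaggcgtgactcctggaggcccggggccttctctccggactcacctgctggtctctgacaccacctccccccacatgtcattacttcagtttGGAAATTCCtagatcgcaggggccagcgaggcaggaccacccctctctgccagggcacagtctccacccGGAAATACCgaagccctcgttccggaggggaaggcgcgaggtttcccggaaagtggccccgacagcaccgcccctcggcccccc
Sele: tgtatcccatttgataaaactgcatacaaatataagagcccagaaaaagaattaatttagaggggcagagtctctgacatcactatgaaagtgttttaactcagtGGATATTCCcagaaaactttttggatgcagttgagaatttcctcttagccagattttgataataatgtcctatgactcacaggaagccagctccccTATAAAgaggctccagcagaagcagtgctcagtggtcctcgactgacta
Madcam1: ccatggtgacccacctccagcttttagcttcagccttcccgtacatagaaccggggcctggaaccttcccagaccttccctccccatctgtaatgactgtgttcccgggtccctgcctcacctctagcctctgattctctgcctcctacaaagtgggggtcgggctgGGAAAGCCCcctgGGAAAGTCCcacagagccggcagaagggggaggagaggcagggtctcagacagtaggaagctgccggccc

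The Icam1 window held 2 matches to the NF-kB core, GGAAATTCC at −153 to −145 and GGTATTTCC on the other strand at −84 to −76, counted from the start site. The Sele window held GGATATTCC at −145 to −137 and TATAAA at −49 to −44. It also held TGACTCA, a match to the AP-1 motif TGANTCA, at −73 to −67. The Madcam1 window held 2 core matches on the other strand, GGGCTTTCC at −83 to −75 and GGACTTTCC at −70 to −62, and both lay within matches to the longer NF-kB consensus. Selp had 1 core match, GGCCTTTCC, on the other strand at −14 to −6, and TGATTCA, a match to the AP-1 motif, at −139 to −133. In Alcam, Mcam and Cd99l2 the window held 0 matches to any of these motifs, and Vcam1 and Icam2 had no entry in the promoter table, so 7 of the 9 members were searched. Among 32526 promoter windows of the same length, 15.7% held the core, 7.28% the longer NF-kB consensus, which overlaps it, 6.73% TGANTCA and 12.3% TATAAA. The core occurred in all 4 cytokine-induced members searched and in none of the 3 constitutive ones. The longer consensus had 0 matches in Icam1, Sele and Selp. The motifs were chosen after the sequences were seen, so this split is no test of the division. It describes these letters only and not whether a factor bound there.

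The targeted gene was examined first. The normalised counts of Tardbp (deposited counts divided by size factors that put the libraries on 1 scale) were 1973, 2282 and 2069 for control mice 1, 2 and 3 against 982, 600 and 433 for TDP-43 iΔEC mice 1, 2 and 3. Every TDP-43 iΔEC library was below every control library, as the labels say, and the adjusted p was 0.287 (limma, log2 fold change −1.62, SE 0.41). The libraries held 25704871 to 47270654 counts, and the 2 smallest were TDP-43 iΔEC mice 3 and 2. The share of counts from 18S ribosomal RNA was 14.8, 14.8 and 18.5% in controls against 8.04, 8.18 and 13.6% in TDP-43 iΔEC mice, without overlap, and leaving ribosomal RNA out kept the call of Icam1. In these 6 libraries 3 counts corresponded to 2.27 to 4.26 normalised counts, which is the detection floor used here and covers counting error only. Control mouse 2, with 12972 genes detected against 14103 to 16557 elsewhere, and TDP-43 iΔEC mouse 1 stood apart from the others in a multidimensional scaling of all tested genes.

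EC markers were abundant in the sorted cells of both groups. The 6 markers Pecam1, Cdh5, Cldn5, Kdr, Flt1 and Vwf summed to 9122 to 12904 CPM (counts scaled to the library total) in controls against 9182 to 11589 in TDP-43 iΔEC mice. Most of this sum was Cldn5, and 5 of the 6 log2 differences were negative, though 0 of the 6 passed. Flt1, a VEGF receptor gene, was at 1981, 1621 and 1721 CPM in controls against 1318, 1296 and 1115 in TDP-43 iΔEC mice (limma, log2 −0.69, unadjusted p = 0.000136, adjusted p = 0.0635). The marker lists of 2 other kinds of cells did not overlap between the groups. The sum of 5 red blood cell genes was 6336 to 9759 CPM in controls against 2197 to 2909 in TDP-43 iΔEC mice, and that of 6 fibroblast genes was 50.5 to 61.2 against 62.7 to 109. Among 12 marker lists, each of these 2 reached an exact permutation p of 0.1 (two-sided, the smallest that 3 against 3 mice allow, 0.6 after adjustment over the 12 lists). Of the 6 fibroblast genes only Col3a1 did not overlap by itself, at 14.0, 17.9 and 20.3 CPM in controls against 45.9, 65.2 and 49.9. Limma tested 4 of the 6, and 2 had a positive and 2 a negative log2 difference. With limma, 4 of the 5 red blood cell genes, Hba-a1, Hba-a2, Hbb-bs and Hbb-bt, passed the threshold as lower, 4 of the 14 genes called lower in all, although Hba-a1 and Hba-a2, like Hbb-bs and Hbb-bt, are near-identical copies between which reads may be split. The antibodies listed for the sort include ones to CD31, CD45 and TER-119, the last a red blood cell antigen. Of 8 leukocyte markers, S100a8, S100a9 and Ccr2 were at 0 in every library and Ptprc, the gene of the common leukocyte antigen CD45, was at most 0.567 CPM, while the list summed to 14.3 to 22.7 CPM in controls against 14.6 to 33.0 in TDP-43 iΔEC mice, nearly all of it Ly6c2. The part of these other cells in the results below was not tested. In bulk samples, more RNA of a gene per cell cannot be told from a larger number of cells that carry it.

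Of the 9 members, 8 had enough counts to be tested with limma, and 1, Icam1, was higher in TDP-43 iΔEC mice at an adjusted p under 0.05, while 0 were lower. Over all 13107 genes tested, 0.0305% passed this threshold as higher and 0.107% as lower. At an unadjusted p under 0.05, 3 of the 8 were higher, Icam1, Vcam1 and Sele, against 4.26% of all genes, and 0 were lower, against 5.0%. In 4 members every TDP-43 iΔEC library lay above every control library (Icam1, Vcam1, Sele and Icam2), against 7.93% of all genes, and in 0 members every one lay below, against 7.10%. The members were chosen with earlier results of these data known, so these shares describe the list and do not test it. The median log2 fold change was 2.10 over the 4 cytokine-induced members tested and 0.07 over the 4 constitutive ones, beside −0.02 over all genes tested. The 3 members with an unadjusted p under 0.05 were thus all cytokine-induced, and the remaining induced member tested, Madcam1, was not among them. The plot of counts by library shows the spread behind these numbers.

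**Figure D1:**
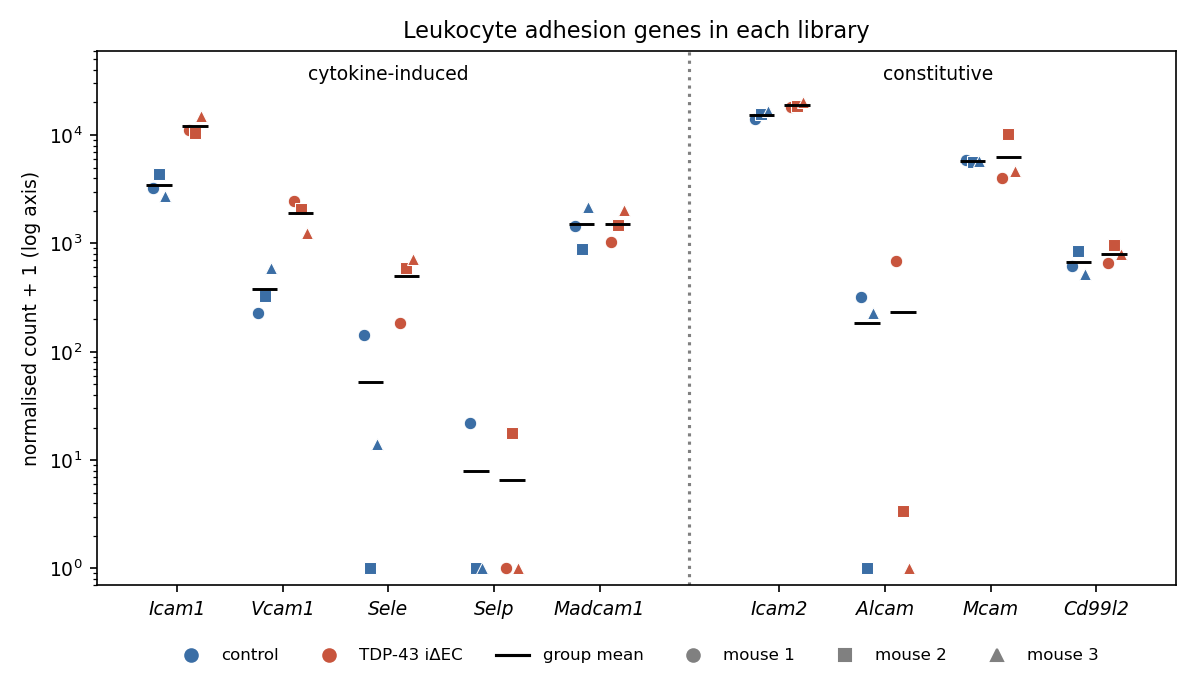
Normalised count plus 1 (log axis) of each of the 9 members in 3 control libraries (blue) and 3 TDP-43 iΔEC libraries (red), with marker shapes for mice 1, 2 and 3 and black lines for group means. Icam1, Vcam1, Sele and Icam2 had every red point above every blue point, while Madcam1, Alcam, Mcam and Cd99l2 overlapped and Selp was at 0 in 4 of the 6 libraries.

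Icam1 encodes ICAM-1, the EC ligand of the leukocyte integrins LFA-1 and Mac-1 (ENSMUSG00000037405.9, chr9:20926672-20940113 on GRCm39, plus strand, 7 exons in its representative transcript). Its normalised counts were 3275, 4358 and 2714 in controls against 11156.5, 10503 and 14953 in TDP-43 iΔEC mice. All 3 TDP-43 iΔEC libraries were far above the highest control library, and TDP-43 iΔEC mouse 3 was the highest of all. The group means were 3449 ± 836 and 12204 ± 2403 (SD, n = 3 each), and Icam1 rose 3.43-fold (95% confidence interval 2.35 to 5.01, limma, log2 fold change 1.78, SE 0.24, adjusted p = 0.0342). The log2 fold change stayed at 1.62 to 1.94 when any 1 of the 6 mice was left out, but the adjusted p was then above the threshold in each of these fits, from 0.0752 without control mouse 2 to 0.193 without TDP-43 iΔEC mouse 1. It also lost the call with edgeR (adjusted p = 0.109), with scaling to EC markers (adjusted p = 0.0990, log2 fold change 2.02) and with the trend on transcript GC content and length removed (adjusted p = 0.985, log2 fold change 1.64), a fit in which 0 of all genes passed and 448 had an unadjusted p under 0.05. Of the exonic bases of Icam1, 10.3% overlap the antisense gene Gm47079, and the counting is not stated to use strand.

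Vcam1 encodes VCAM-1, the EC ligand of the integrin VLA-4 on lymphocytes and monocytes (ENSMUSG00000027962.15, chr3:115903598-115923355, minus strand, 9 exons). The control libraries held 225, 325 and 597 normalised counts and the TDP-43 iΔEC libraries 2448, 2062 and 1243. The groups did not overlap, and the lowest TDP-43 iΔEC library, mouse 3, stood above the highest control library, mouse 3. The means were 382 ± 193 and 1918 ± 615 (SD, n = 3 each), a fitted difference of 2.42 on the log2 scale (SE 0.58, 95% confidence interval 1.11 to 3.73). The unadjusted limma p was 0.00246 and the adjusted p 0.271, so Vcam1 did not pass the threshold although its fitted fold, 5.34, was larger than that of Icam1. In all 21 alternative fits its difference was positive (log2 2.09 to 2.82) and the unadjusted p was under 0.05, and with DESeq2 it passed (adjusted p = 0.00398). Fibroblasts can also express Vcam1, and 1 of their 6 markers, Col3a1, did not overlap either, at 14.0, 17.9 and 20.3 CPM in controls against 45.9, 65.2 and 49.9 CPM in TDP-43 iΔEC mice. Col1a1 overlapped (6.72, 0 and 4.15 CPM in controls against 12.1, 16.4 and 2.22), as did Col1a2 (13.8, 19.7 and 17.7 against 20.4, 20.9 and 10.5). Dcn overlapped too (8.33, 15.7 and 12.1 against 10.6, 6.59 and 0). The fibroblast markers Lum and Pdgfra were at 0 in the TDP-43 iΔEC libraries and in control mouse 2. In control mice 1 and 3 they were at only 2.77 to 4.86 CPM. The part of fibroblasts in the Vcam1 values was not tested.

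The mice were not ordered alike for Icam1 and Vcam1. Control mouse 3 had the lowest Icam1 and the highest Vcam1 of its group, and TDP-43 iΔEC mouse 3 had the highest Icam1 and the lowest Vcam1 of its group. For each 100 counts of Vcam1 the control libraries held 1456, 1340 and 454 counts of Icam1 and the TDP-43 iΔEC libraries 456, 509 and 1202. This ratio overlapped between the groups (exact permutation p = 0.5, two-sided, 0.643 after adjustment over the 9 ratios compared).

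Sele encodes E-selectin, a rolling receptor made nearly only by activated ECs (ENSMUSG00000026582.7, chr1:163867401-163886055, plus strand, 14 exons). Its normalised counts were 141, 0 and 13.0 in controls against 183, 596 and 711 in TDP-43 iΔEC mice. The groups did not overlap, but TDP-43 iΔEC mouse 1 and control mouse 1 were close, and control mouse 2 had no count. The ratio of the group means was 9.71 (51.2 ± 77.7 against 497 ± 277, SD, n = 3 each). The limma difference of 5.13 on the log2 scale had a wide interval (0.18 to 10.07, unadjusted p = 0.0436, adjusted p = 0.522). Without control mouse 2 it was 3.01 (unadjusted p = 0.130) and without control mouse 1 it was 7.10 (unadjusted p = 0.0279), so its size depended on single libraries near or at 0.

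Selp encodes P-selectin, which ECs and platelets store in granules (ENSMUSG00000026580.17, chr1:163942833-163977595, plus strand, 16 exons). It held 25 raw counts in control mouse 1, 14 in TDP-43 iΔEC mouse 2 and 0 in the other 4 libraries, which was too few for a test. In normalised counts, these were 20.8 and 16.7. By counting error alone the libraries at 0 allow at most the floor of 2.27 to 4.26, so their cells may have held more. Both libraries with counts also had platelet genes: the 5 platelet markers summed to 9.22 CPM in control mouse 1 and 7.58 in TDP-43 iΔEC mouse 2, within a range of 0.422 to 9.22 over the 6 libraries. TDP-43 iΔEC mouse 3, with platelet markers at 8.21 CPM, had no Selp count. The part of platelets in the Selp counts was not tested.

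Madcam1 encodes MAdCAM-1, the ligand of integrin α4β7, known from gut venules and from the choroid plexus in inflammation (ENSMUSG00000020310.10, chr10:79500209-79504371, plus strand, 5 exons). The values were 1440.0, 895 and 2174 normalised counts in controls against 1029, 1473 and 2018 in TDP-43 iΔEC mice. The groups overlapped throughout, with the lowest and the highest library both among the controls. The means were 1503 ± 642 and 1507 ± 495 (SD, n = 3 each), and the log2 difference was −0.09 (95% confidence interval −1.08 to 0.90, adjusted p = 0.964). This interval does not reach 1.78, the log2 fold change of Icam1, in either direction. The sign of this small difference turned positive in 8 of 21 alternative fits.

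Among the constitutive members, Icam2 was the most abundant. It encodes ICAM-2, a ligand of LFA-1 that ECs carry at rest and hold at their junctions (ENSMUSG00000001029.16, chr11:106263312-106278943, minus strand, 4 exons). Its normalised counts were 13977, 15549 and 16711 in controls against 18243, 18359.5 and 20111 in TDP-43 iΔEC mice. Here too every TDP-43 iΔEC library was above every control library, but the step was small beside that of Icam1. The means were 15412 ± 1372 and 18905 ± 1047 (SD, n = 3 each), and the fitted fold was 1.19 (95% confidence interval 0.950 to 1.49, log2 0.25, SE 0.14, adjusted p = 0.602). The antisense gene Prr29 overlaps 24.5% of the exonic bases of Icam2.

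Mcam encodes MCAM, an adhesion protein of EC junctions that mural cells also carry (ENSMUSG00000032135.16, chr9:44045504-44054025, plus strand, 16 exons). The control libraries were nearly equal at 5862, 5682 and 5730.1 normalised counts. The TDP-43 iΔEC libraries were spread on both sides of them at 4050.4, 10251 and 4640.4. The means were 5758 ± 93.5 and 6314 ± 3422 (SD, n = 3 each), and the log2 difference was −0.07 (95% confidence interval −0.80 to 0.66, adjusted p = 0.960). TDP-43 iΔEC mouse 2, the high library, also had the highest sum of 8 mural cell markers, 1079 CPM against 430 to 893 CPM in the other 5 libraries, and the highest level of 5 of them (Pdgfrb, Rgs5, Cspg4, Kcnj8 and Acta2), but not of Abcc9, Myh11 or Tagln, the last of which was lowest there. The part of mural cells in the Mcam value was not tested.

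Alcam encodes ALCAM, a ligand of CD6 on T cells that neural and oligodendrocyte-lineage cells also make (ENSMUSG00000022636.14, chr16:52069359-52274437, minus strand, 16 exons). It was detected unevenly, with 319, 0 and 227 normalised counts in controls against 691, 2.39 and 0 in TDP-43 iΔEC mice. The groups overlapped and each held a library at 0. The log2 difference of −1.31 had an interval of −9.23 to 6.62 (adjusted p = 0.924) and no direction can be read from it. The 5 oligodendrocyte-lineage markers were also high in the library with the most Alcam, at 497 CPM in TDP-43 iΔEC mouse 1 against 59.4 and 15.7 in mice 2 and 3 of that group, and 288 to 546 in control mice. Control mouse 2, with these markers at 351 CPM, had no Alcam count. The part of such cells in the Alcam values was not tested.

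Cd99l2 encodes CD99L2, a junction protein that leukocytes need at a late step of their passage through the wall (ENSMUSG00000035776.15, chrX:70452401-70536461, minus strand, 9 exons). The values were 624, 854 and 522 normalised counts in controls against 653, 959 and 805 in TDP-43 iΔEC mice. The groups overlapped, with control mouse 2 above both TDP-43 iΔEC mice 1 and 3. The means were 666 ± 170 and 805 ± 153 (SD, n = 3 each), and the log2 difference was 0.21 (95% confidence interval −0.77 to 1.18, adjusted p = 0.895). Of its exonic bases, 16.8% overlap the antisense genes Mtmr1 and Gm16189. Such antisense overlap was also 26% in Selp (Gm69625 and Gm16548), 15.3% in Mcam (Gm10687) and 0.678% in Vcam1 (Gm43109). It was 0 in Sele, Madcam1 and Alcam.

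**Figure D2:**
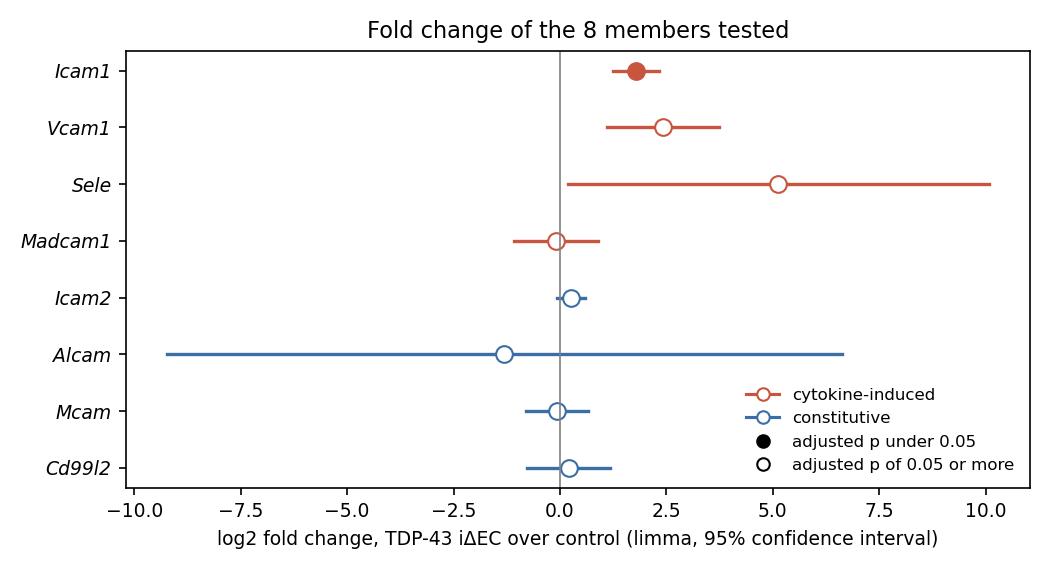
Log2 fold change of TDP-43 iΔEC over control (limma, horizontal axis) for the 8 members tested, as points with 95% confidence intervals, red for cytokine-induced and blue for constitutive members. Only Icam1 is filled, for an adjusted p of 0.0342, the intervals of Vcam1 and Sele also lie above 0, and those of Madcam1 and the 4 constitutive members span 0.

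A ratio of 2 genes within a library does not depend on how libraries are scaled to each other, so the induced members were also read against Icam2, the most abundant constitutive member. For each 100 counts of Icam2 there were 23.4, 28.0 and 16.2 counts of Icam1 in controls against 61.2, 57.2 and 74.4 in TDP-43 iΔEC mice. The groups did not overlap, and the ratio was 2.90 times higher in TDP-43 iΔEC mice (exact permutation p = 0.1, two-sided, the smallest possible, 0.225 after adjustment over the 9 ratios). Vcam1 gave 1.61, 2.09 and 3.58 counts per 100 of Icam2 in controls against 13.4, 11.2 and 6.18 in TDP-43 iΔEC mice. These did not overlap either, a 4.26-fold difference (exact permutation p = 0.1, adjusted 0.225). For Madcam1 the same ratio was 10.3, 5.76 and 13.0 against 5.64, 8.03 and 10.0, and the groups overlapped (exact permutation p = 0.5, adjusted 0.643). The Sele ratio overlapped as well, since control mouse 1 and TDP-43 iΔEC mouse 1 both stood at 1.01 counts per 100 of Icam2 (exact permutation p = 0.2, adjusted 0.36).

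With Pecam1, the gene of the EC antigen CD31, as the reference the picture was the same for both. Icam1 stood at 5.84, 10.0 and 6.71 counts per 100 of Pecam1 in control mice and at 20.1, 18.5 and 33.9 in TDP-43 iΔEC mice, 3.18 times higher. Vcam1 stood at 0.401, 0.747 and 1.48 against 4.41, 3.64 and 2.82, which was 4.67 times higher, and neither ratio overlapped between the groups (exact permutation p = 0.1, adjusted 0.225, for each). The ratio of Icam2 to Pecam1 did overlap (24.9, 35.7 and 41.3 against 32.9, 32.4 and 45.6, exact permutation p = 0.7, adjusted 0.788), unlike its normalised counts. That of Mcam to Pecam1 overlapped too (10.5, 13.1 and 14.2 against 7.30, 18.1 and 10.5, exact permutation p = 0.8, adjusted 0.8).

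**Figure D3:**
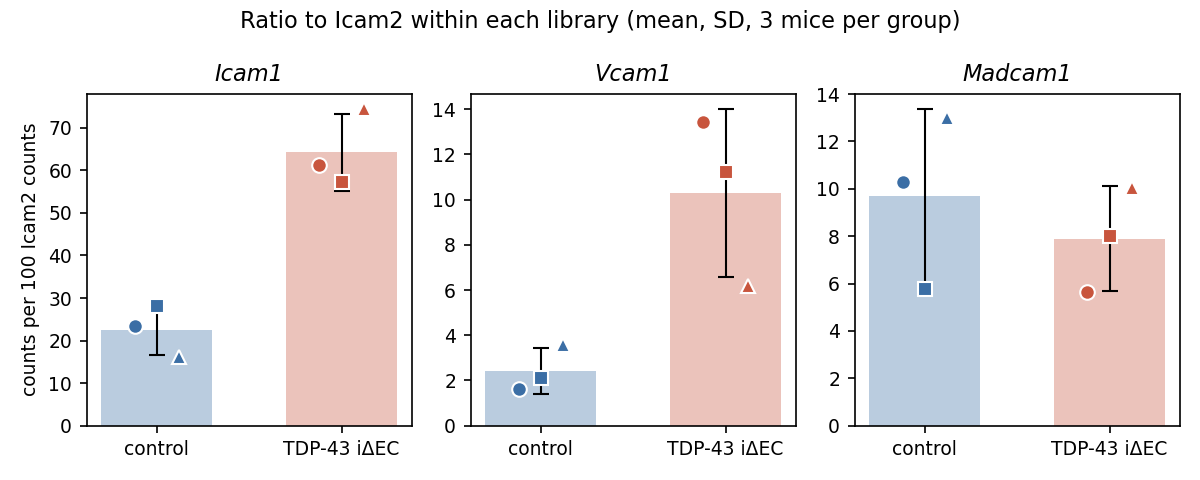
Counts of Icam1, Vcam1 and Madcam1 per 100 counts of Icam2 in each library (points, shapes for mice 1, 2 and 3), with bars for the means and error bars for the SD of 3 mice per group. The TDP-43 iΔEC libraries lie above every control library for Icam1 (57.2 to 74.4 against 16.2 to 28.0) and Vcam1 (6.18 to 13.4 against 1.61 to 3.58) and overlap with them for Madcam1.

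The members differed widely in level. Lengths were those of GENCODE M39, whereas the counts were made with M30, and the control level of Icam2 ran from 2076 to 18546 with the length used. Per kilobase of representative transcript, in normalised counts per kb, the control means were 2389 ± 213 for Icam2, 1721 ± 27.9 for Mcam, 1097 ± 266 for Icam1 and 928 ± 396 for Madcam1. Lower down were Cd99l2 (118 ± 30.1), Vcam1 (110 ± 55.4), Alcam (30.1 ± 27.2), Sele (13.6 ± 20.7) and Selp (2.02 ± 3.49, SD, n = 3 each). In this order the libraries of Icam1 and Madcam1 overlapped, as did those of Cd99l2 and Vcam1 and those of Alcam, Sele and Selp, so these neighbours did not differ beyond their spread. Icam2 and Mcam, both constitutive, took the first and second places in control ECs with every length tried (representative transcript, union of exons or coding length), while Icam1 and Madcam1, both counted among the induced members, were present at moderate levels without the deletion.

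In TDP-43 iΔEC mice the level per kb of Icam1 was 3882 ± 764, that of Icam2 2930.0 ± 162 and that of Mcam 1888 ± 1023. Madcam1 followed at 930.0 ± 306, Vcam1 at 551 ± 177, Cd99l2 at 142 ± 27.1, Sele at 132 ± 74.0, Alcam at 38.3 ± 66.0 and Selp at 1.62 ± 2.80 (SD, n = 3 each). On this length Vcam1 overlapped with Cd99l2 in control mice and stood above it in every TDP-43 iΔEC library, but per kb of coding length Cd99l2 was the higher of the pair in both groups (1038 against 172 in controls and 1255 against 865 with the deletion). Overlap remained between Icam2 and Mcam, Mcam and Madcam1, Madcam1 and Vcam1, Cd99l2 and Sele, Sele and Alcam, and Alcam and Selp. Whether Icam1 exceeded Icam2 in TDP-43 iΔEC mice depended on the length used, because the representative transcript of Icam2 has 6452 bases but its coding length is 831. With the union of all exons Icam1 stood at 2456 and Icam2 at 2546, and with coding length at 7576 and 22749.

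The genes with the most similar course over the 6 libraries were sought for both induced members that moved most clearly. Likeness was the root mean square difference of log2 CPM centred on each gene's mean over the libraries, among all genes tested, and is a description of 6 shared libraries. Nearest to Icam1 were Mylk, which encodes a kinase of the myosin light chain (0.184), Noct, a circadian gene (0.190), Gpihbp1, which anchors lipoprotein lipase on capillary ECs (0.219), Rps23rg1 (0.248) and Vcpkmt (0.260). Of these, Rps23rg1 was only weakly detected, at log2 CPM values of −2.72, −2.91 and −3.28 in controls against −1.47, −1.01 and −1.05 in TDP-43 iΔEC mice. Mylk stood at log2 CPM values of 4.32, 4.13 and 3.96 in controls against 5.83, 5.75 and 6.07 in TDP-43 iΔEC mice. Nearest to Vcam1 were Arhgap28, a GTPase-activating protein gene (0.213), Gm10401 (0.346), Trim59 (0.356), Nucb2 (0.383) and Tlcd3b (0.408). Arhgap28 followed the order of the mice seen in Vcam1, at 1.74, 2.74 and 3.72 in controls against 5.22, 5.01 and 4.43 in TDP-43 iΔEC mice on the log2 CPM scale.

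The other genes of leukocyte adhesion and transmigration were read as a list of 53 genes in 6 roles, of which 41 were tested. Of these, 0 passed an adjusted p under 0.05 in either direction with limma, and the lowest adjusted p was 0.271. At an unadjusted p under 0.05 there were 4 higher (against 4.26% of all genes tested) and 4 lower (against 5.0%). In 7 genes the groups did not overlap with TDP-43 iΔEC higher (against 7.93%), and in 5 with TDP-43 iΔEC lower (against 7.10%). The median log2 fold change was −0.02, beside −0.02 over all genes tested. With DESeq2, 1 of these genes passed, Jam2.

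Junctional molecules included some of the most abundant transcripts of the list. Jam2, a junctional adhesion molecule that also binds VLA-4, held 14750.2, 16262 and 14187 normalised counts in controls against 9642, 9798 and 10962.5 in TDP-43 iΔEC mice. Its groups did not overlap, and its log2 difference was −0.62 (SE 0.15, unadjusted p = 0.00277, adjusted p = 0.271, limma). Esam, an EC-selective junction molecule, was the most abundant of the role at 82823 ± 11252 in controls against 63037 ± 15426 in TDP-43 iΔEC mice (log2 −0.44, adjusted p = 0.495). Pecam1 (CD31) stood at 46678 ± 8282 and 52101 ± 6938 (log2 0.14, adjusted p = 0.787). F11r, which encodes JAM-A, was at 13315 ± 1055 and 16953 ± 2508 without overlap (log2 0.33, adjusted p = 0.564). Of the 10 junctional genes tested, 7 had a positive and 3 a negative difference.

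Among 6 capture molecules tested, Ackr1 gave the lowest p. ACKR1 is a chemokine carrier typical of venules, and its normalised counts were 173, 0 and 248 in controls against 667, 714 and 1655 in TDP-43 iΔEC mice. All TDP-43 iΔEC libraries were above the controls (log2 4.93, SE 2.11, adjusted p = 0.527), and control mouse 2 was again at 0, as for Sele. Aoc3, which encodes the adhesion enzyme VAP-1, ran the other way, with 162, 312 and 105 against 0, 25.0 and 69.5 (log2 −4.51, SE 2.06, adjusted p = 0.549). The sialomucin genes Cd34 (79275 ± 7894 against 81518 ± 17268, adjusted p = 1.00) and Emcn (52608 ± 5009 against 47628 ± 10022, adjusted p = 0.736) were abundant and did not pass. The 5 venous EC markers, Ackr1 among them, summed to 750.0 to 1235 CPM in controls against 691 to 1072 in TDP-43 iΔEC mice, so the groups overlapped (exact permutation p = 0.4, 0.686 after adjustment over the 12 lists). Most of this sum was Slc38a5, which was lower in TDP-43 iΔEC mice (limma, log2 −0.60, unadjusted p = 0.0349, adjusted p = 0.511). Ephb4, like Ackr1, was higher in every TDP-43 iΔEC library, at 47.2, 41.8 and 42.2 CPM against 53.5, 57.7 and 96.4 (limma, unadjusted p = 0.292). The other venous markers were Il1r1, which was lower (limma, log2 −0.60, unadjusted p = 0.166), and Nr2f2, which was nearly unchanged (log2 −0.01).

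ICAM-1 and VCAM-1 are tied to the actin cytoskeleton by ezrin and moesin, which gather them around a bound leukocyte. Msn (moesin) held 24191, 14122 and 17089 normalised counts in controls against 26082, 36479 and 24584 in TDP-43 iΔEC mice, without overlap (log2 0.62, SE 0.23, adjusted p = 0.471). Ezr (ezrin) was at 791, 1235 and 562 against 1623, 1432 and 1438, also without overlap (log2 0.86, SE 0.38, adjusted p = 0.541). Rdx, the gene of the third member of this family, radixin, gave 4039 ± 1156 against 3991 ± 465 (log2 −0.02, adjusted p = 0.988) and both Ezr and Rdx were named after their values were seen. The focal adhesion gene Vcl had the lowest p of the lower genes, at 6407 ± 3709 against 3271 ± 2294 with overlap (log2 −1.36, SE 0.59, adjusted p = 0.530). Cav1, the caveola gene and the most abundant of the 12 tested in control mice, was at 27418 ± 1744 and 26167 ± 4757 (log2 −0.15, adjusted p = 0.779).

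The receptors that could carry an inducing signal to ECs were detected in both groups. Tlr4, the receptor of bacterial lipopolysaccharide, held 44.9, 0 and 230.5 normalised counts in controls against 1221, 458 and 1107 in TDP-43 iΔEC mice. These did not overlap (log2 5.68, SE 2.15, unadjusted p = 0.0270, adjusted p = 0.487), and control mouse 2 was at 0 once more. The interferon-γ receptor gene Ifngr1 stood at 2339 ± 682 and 3455 ± 416 (log2 0.56, adjusted p = 0.564). The signal chain of the IL-6 family, Il6st, stood at 2723 ± 192 and 3117 ± 478 (log2 0.15, adjusted p = 0.859). The TNF receptor gene Tnfrsf1a was at 1156 ± 269 and 1712 ± 589 (log2 0.49, adjusted p = 0.672). The IL-1 receptor gene Il1r1 was at 1400 ± 518 and 899 ± 35.3, lower in TDP-43 iΔEC mice (log2 −0.60, adjusted p = 0.640). Its groups did not overlap in normalised counts but did in CPM (34.0, 49.0 and 25.4 against 26.5, 27.7 and 23.6). Tnfrsf1a and Il1r1 were named after their values were seen, because TNF and IL-1 are the textbook inducers.

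The sheddases ADAM10 and ADAM17 cut adhesion molecules from the cell surface. Adam10 held 14085.5, 18924 and 15075 normalised counts in controls against 12380, 10732 and 10423 in TDP-43 iΔEC mice (log2 −0.53, SE 0.17, unadjusted p = 0.0124, adjusted p = 0.402). Adam17 held 4217, 5756 and 3447 against 3325, 3419 and 2119 (log2 −0.59, SE 0.29, adjusted p = 0.558). In normalised counts both were lower in every TDP-43 iΔEC library than in any control library, Adam17 only narrowly. In CPM the groups of Adam17 overlapped (115, 143 and 89.9 against 97.4, 102 and 58.1). Neither gene passed the threshold.

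The counter-receptors that leukocytes carry were nearly absent. Itgam, Selplg and Cd6 had 0 counts in all 6 libraries, and Itgal, Itgb2 and Itgb7 were detected in at most 2 libraries each. Itga4, the α4 chain of VLA-4 and of the MAdCAM-1 receptor, was the exception and the only one tested, at 2938, 1908 and 3445 normalised counts in controls against 6170.4, 4454 and 4479 in TDP-43 iΔEC mice. The groups did not overlap (log2 0.88, SE 0.29, unadjusted p = 0.0149, adjusted p = 0.429). Ptprc was at 0 in 4 of the 6 libraries and Itgb2, the β2 chain, in 5. The part of leukocytes in the Itga4 values was not tested.

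**Figure D4:**
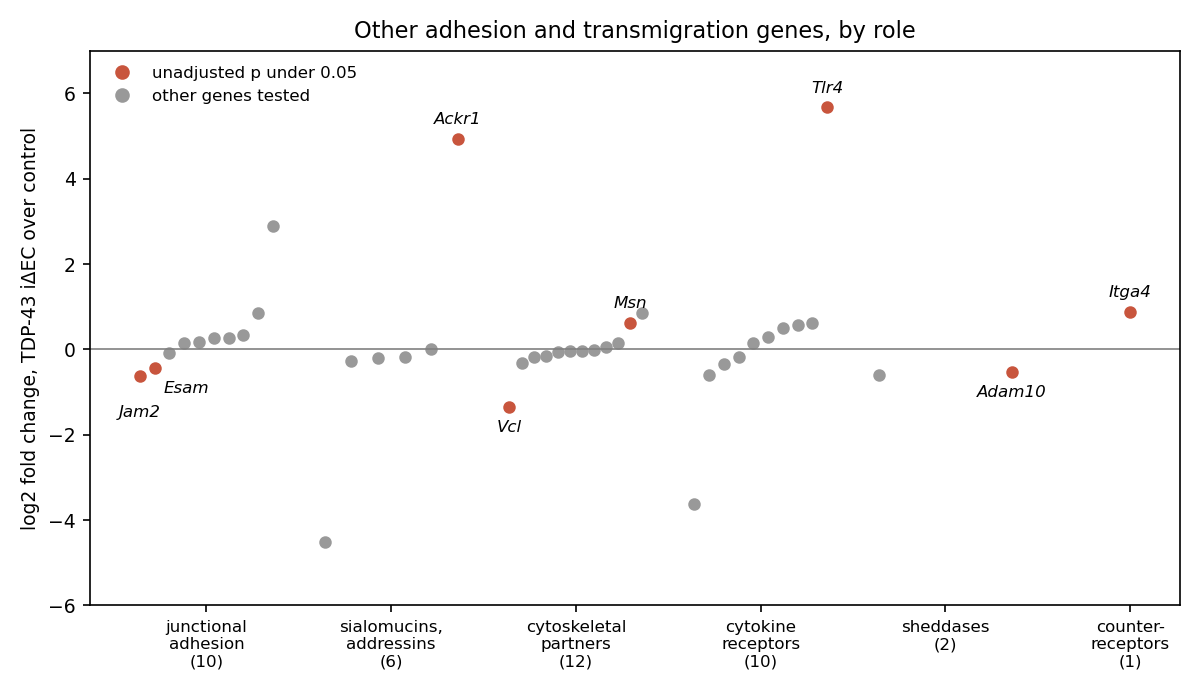
Log2 fold change of TDP-43 iΔEC over control (vertical axis) of the 41 other adhesion and transmigration genes tested, by role, with the number tested below each role and red points for an unadjusted p under 0.05. Ackr1, Tlr4, Msn and Itga4 are the 4 higher and Jam2, Esam, Vcl and Adam10 the 4 lower genes, and 0 of the 41 passed after adjustment.

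Icam1 was past the threshold in 9 of 21 alternative fits and positive in all 21 (log2 1.62 to 2.02). Icam2 was also positive in all 21, at 0.18 to 0.50, and passed in 0 of them. Scaling to EC markers raised the median log2 fold change of all genes from −0.02 to 0.23 and put Icam1 at 2.02, Vcam1 at 2.76 and Icam2 at 0.50.

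**Figure D5:**
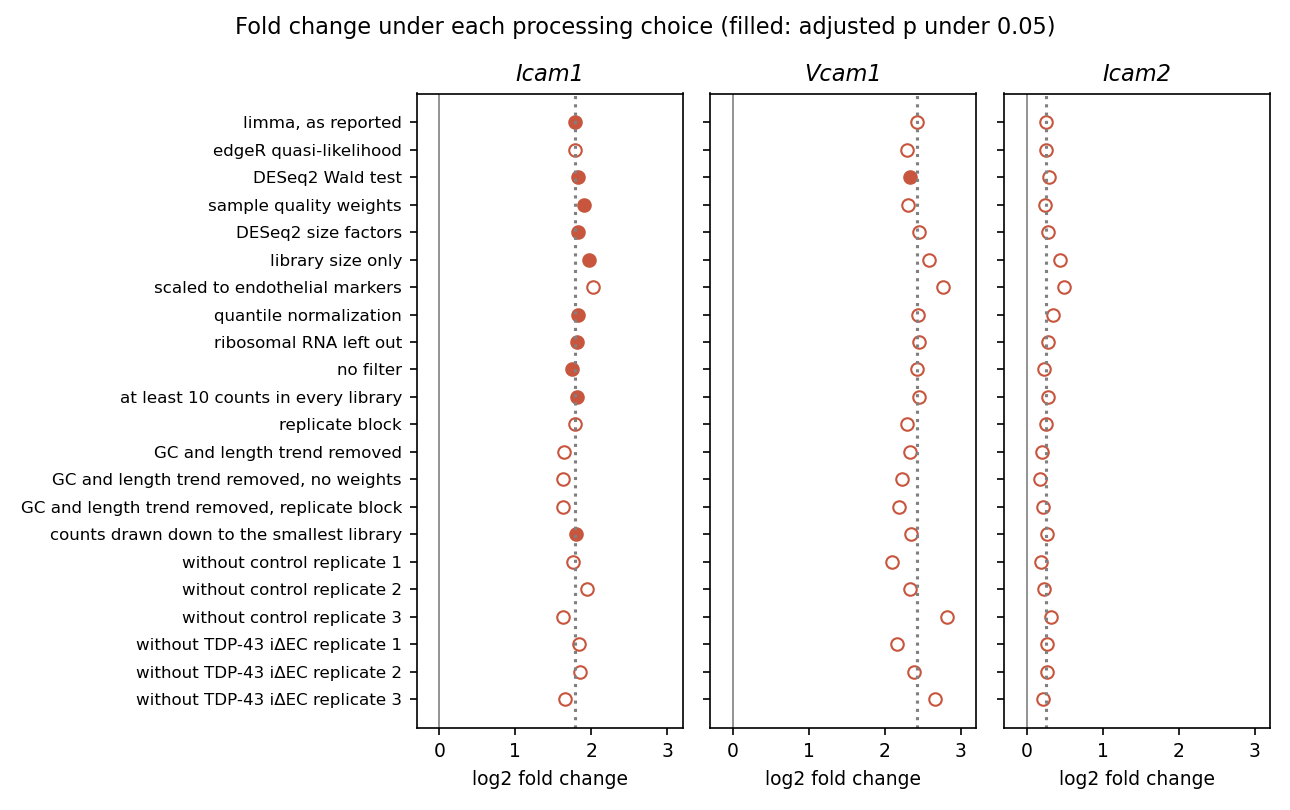
Log2 fold change (horizontal axis) of Icam1, Vcam1 and Icam2 under limma as reported and 21 other processing choices (rows), filled where the adjusted p was under 0.05 and with a dotted line at the reported value. Icam1 ranged from 1.62 to 2.02, Vcam1 from 2.09 to 2.82 and Icam2 from 0.18 to 0.50, and the calls of Icam1 were lost in all 6 fits that left out a mouse.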

How the data were processed

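Bulk RNA-Seq of ECs sorted from the spinal cord of 3 control and 3 TDP-43 iΔEC mice was used, with groups taken from the sample labels. The authors prepared SMARTseq2 libraries from 0.2 to 3.1 ng of RNA (15 or 20 PCR cycles, not given per library, no molecular identifiers), aligned reads to GRCm39 with STAR 2.7.8a and used RSEM 1.3.0 to estimate counts of GENCODE M30 genes. Their deposited expected counts were whole numbers, neither scaled nor filtered, so PCR copies count as reads and short or GC-rich transcripts may be amplified unevenly. Nothing in the sources used here says whether counting used strand, or that mice came from separate litters, so p-values measure the spread between these mice.

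Counts were analysed by limma 3.58.1 under R 4.3.3 (voom, TMM scaling and filterByExpr of edgeR 4.0.16), with Benjamini-Hochberg adjustment over all 13107 genes and a threshold of 0.05. Normalised counts were divided by size factors of DESeq2 1.42.0. Ratios used a pseudocount of 0.5 and exact two-sided permutation tests. The procedures were tested on simulated data. Gene positions came from GENCODE M39 (98.7% of identifiers matched) and promoters from RefSeq, with motifs chosen after the sequences were seen. The members and lists were chosen with earlier results of these data known. Named were Tardbp, the members, in each role of the list the tested genes with the lowest p and the highest level (up to 4), marker genes beside a result, and the 5 genes most like Icam1 and Vcam1. Of the list, 1 gene (Cd99) was not used here and another is not reported here. Alternatives replaced the test, scaling, filter, ribosomal RNA, GC and length trend (loess span 0.3), pairing or a single mouse, and after the data were seen, counts drawn down to the smallest library and coding length were added. Every pair of libraries differed beyond sampling noise (chi-square per degree of freedom at least 162).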

Additional observations from a re-analysis of the deposited data

How the results depend on the processing

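Limma called 18 genes in all. The count was 0 with edgeR (848 at an unadjusted p under 0.05) and with the GC and length trend removed, without (448) or with the replicate block (319), but 21 with that trend removed and no precision weights, 1 with scaling to EC markers, 10 with library size only, 39 with at least 10 counts in every library, 41 with quantile normalization, 76 without a filter and 247 with DESeq2. Without 1 mouse it was 0 to 13. Members past the threshold numbered 2 with DESeq2 (Icam1 and Vcam1), and 0 with edgeR, scaling to EC markers, the replicate block, the 3 fits with the GC and length trend removed and each mouse left out (0 to 0). Of the other adhesion genes, 1 passed with DESeq2. The log2 difference of Madcam1 turned positive with DESeq2 (0.0023), library size only (0.11), EC markers (0.18), the GC and length trend removed without weights (0.027) or with the replicate block (0.11) and counts drawn down (0.020), and was −0.43 to 0.23 without 1 mouse. That of Mcam turned positive with edgeR (0.092), DESeq2 (0.13), sample quality weights (0.056), library size only (0.11), EC markers (0.20) and the replicate block (0.026), and was −0.47 to 0.25 without 1 mouse. That of Alcam turned positive with edgeR (0.29), DESeq2 (0.34), the replicate block (0.54) and the block with the trend removed (0.93), and was −4.53 to 0.90 without 1 mouse. The cause was not tested. Same-numbered mice did not deviate together (correlations −0.071, −0.129 and −0.023), but such values cannot tell whether the mice were paired. Under the replicate block 22 genes passed in place of 18, and the adjusted p of Icam1 was 0.0645 (log2 1.79). The median of all genes moved to 0.18 with library size only, 0.23 with EC markers and −0.17 without control mouse 2. Genes with few counts, Selp above all, are limited by detection. The number of genes detected did not follow depth: control mouse 2 had 45329494 counts and the fewest genes, 12972. The smallest library, TDP-43 iΔEC mouse 3, had 25704871 counts and 14103 genes. With 3 mice per group no exact test of a single value can go below 0.1.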
